A study of Mus musculus with 24 samples.

Results

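The regulators followed here, 8 in number, mark the stages a Schwann cell passes through as it comes to myelinate an axon or holds back from doing so. They are Sox2, Pou3f1, Id1, Id2, Id3, Jun, Egr2 and Sox10. They were taken by symbol, and every probe set annotated to them was used, which gave 15 of the 22690 probe sets on the array and 8 of the 12393 genes measured. Sox2, Id1 and Id3 have 1 probe set each, Pou3f1, Jun and Egr2 have 2 each, and Id2 and Sox10 have 3 each. Where a gene has several, the brightest one over all arrays stands for it unless another is named, and all 8 genes were above the limit used to leave out dim probe sets.

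The arrays were hybridised with RNA of mouse sciatic nerve freed of its perineurial sheath, in 12 groups of 2 arrays, 24 in all. The S63del/Chop null mice carry the S63del form of myelin protein zero, the main protein of peripheral myelin, and lack Chop (gene symbol Ddit3), a transcription factor of the response to misfolded protein. The S63del mice carry the same mutant protein with Chop intact, the Chop null mice lack Chop alone, and the wild-type (WT) mice carry neither change. Each genotype was sampled at postnatal day 5 (P5), when myelination is starting, at P28, near its peak, and at 4 months. The S63del mice are a model of a demyelinating Charcot-Marie-Tooth neuropathy, and the study asked how far the loss of Chop alters the effect of the mutant protein. The labels call the arrays biological replicates but do not say how many animals went into a sample, so the p-values below measure the spread between these samples.

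In the nerve, Schwann cells that have not yet myelinated express Sox2 and Jun, and those about to myelinate pass through a stage marked by Pou3f1. Egr2 then drives the genes of the myelin sheath together with Sox10, which Schwann cells express at every stage. Jun and Egr2 restrain each other, and Jun returns when a Schwann cell reverts to a repair state after injury. The Id proteins lack a DNA-binding region and hold back basic helix-loop-helix factors by pairing with them.

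Promoter sequence is shown for Sox2, Id2 and Jun, because these 3 moved together at P28 (below) and have an entry in the RefSeq promoter table of assembly GRCm38.p6, as did 5 of the 8 genes. Each is the 250 bases before the annotated start, 5′ to 3′ on the gene's own strand. Capitals mark a match to one of 5 motifs searched on both strands. The Sox2 stretch lies at chr3:34649745-34649994 on the plus strand, the Id2 stretch at chr12:25096093-25096342 on the minus strand, and the Jun stretch at chr4:95052223-95052472 on the minus strand.
Sox2: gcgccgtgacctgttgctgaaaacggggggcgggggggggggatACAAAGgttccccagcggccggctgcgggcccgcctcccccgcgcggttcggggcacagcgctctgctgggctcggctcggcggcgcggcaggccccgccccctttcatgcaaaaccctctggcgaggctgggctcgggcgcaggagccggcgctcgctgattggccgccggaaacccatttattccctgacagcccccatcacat
Id2: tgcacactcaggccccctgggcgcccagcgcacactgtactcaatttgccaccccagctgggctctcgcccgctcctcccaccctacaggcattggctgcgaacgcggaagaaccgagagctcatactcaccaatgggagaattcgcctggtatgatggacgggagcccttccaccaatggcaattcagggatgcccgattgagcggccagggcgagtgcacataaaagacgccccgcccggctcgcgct
Jun: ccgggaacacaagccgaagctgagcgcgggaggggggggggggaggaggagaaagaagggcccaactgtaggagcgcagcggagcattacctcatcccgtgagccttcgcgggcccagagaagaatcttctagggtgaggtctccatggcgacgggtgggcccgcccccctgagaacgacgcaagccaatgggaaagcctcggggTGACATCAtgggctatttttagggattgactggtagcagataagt
The motifs were the AP-1 motif TGANTCA, which 6.75% of 32851 promoters of the same length hold, the CRE-like motif TGACNTCA (7.49%), the C/EBP-ATF motif TGATGNAA (3.45%), the octamer ATGCAAAT (1.6%) and the SOX motif ACAANG (36.3%). The Sox2 stretch holds a SOX match, ACAAAG, from 206 to 201 bases before the start. The Jun stretch holds a CRE-like match, TGACATCA, from 45 to 38 bases before the start. The Id2 stretch holds none of the 5, which says only that these letters are not in this window. No match overlaps another, and none was tested for binding.

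Values are log2 expression as deposited, with array medians of 6.98 to 7.01 at P5, 6.84 to 6.87 at P28 and 6.97 to 7.03 at 4 months, so age cannot be told apart from whatever was processed by age. Ddit3 read between 6.60 and 7.37 in the 12 arrays of the Chop null genotypes and between 7.61 and 9.59 in the other 12. The spread between replicates was widest in Chop null at P28 (residual SD 0.394 against 0.123 to 0.228 in the other groups). The mean of the Schwann cell markers stayed between 11.1 and 11.9 in all arrays. The means of other marker lists varied more, from 6.81 to 12.1 for skeletal muscle and from 7.50 to 11.7 for adipocytes, with fibroblast and perineurium at 11.7 to 12.6. In whole nerve, a change in the number of cells of a type cannot be told apart from a change in RNA per cell.

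**Figure D1:**
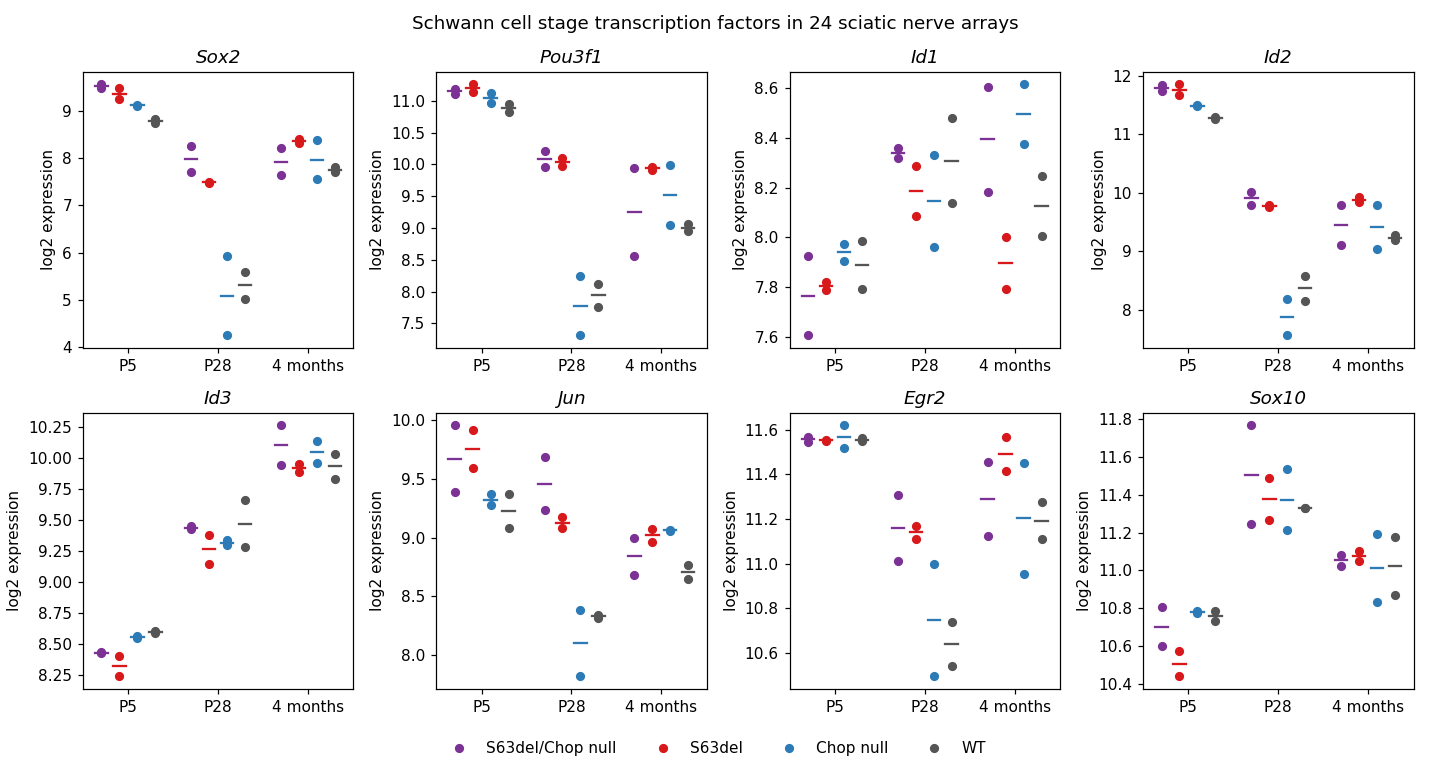
Log2 expression (y axis) of the 8 genes in each of the 24 arrays, 1 panel per gene, grouped by age (x axis) with S63del/Chop null, S63del, Chop null and WT from left to right at each age. Points are arrays and short bars the means of 2, and the y axes do not start at 0; at P28 the Sox2, Pou3f1, Id2 and Jun points of both S63del genotypes stand above those of Chop null and WT, whereas for Id1, Id3 and Sox10 the points of each S63del genotype overlap those of WT.

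At P28 the S63del nerves held more RNA of 4 regulators known from Schwann cells that have not yet myelinated, or have given myelination up, than WT nerves did. Sox2, which holds Schwann cells in an immature state, read 7.49 and 7.50 in S63del nerves, against 5.02 and 5.58 in WT nerves. The 2 groups did not overlap. The difference was 2.19 ± 0.38 on the log2 scale (n = 2 each, limma SE from the spread within all 12 groups), or 4.56-fold (95% interval of the log2 difference 1.39 to 2.99, limma adjusted p = 0.00346). Pou3f1, the marker of the promyelinating stage, read 9.97 and 10.11 in S63del nerves, against 7.76 and 8.13 in WT nerves. Again every S63del array was above every WT array, by 2.09 ± 0.35 or 4.27-fold (limma adjusted p = 0.00276).

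Id2, an inhibitor of basic helix-loop-helix factors, read 9.80 and 9.77 in S63del nerves, against 8.16 and 8.58 in WT nerves, a rise of 1.41 ± 0.24 or 2.66-fold (limma adjusted p = 0.00327). Jun, the AP-1 factor of the repair state, read 9.17 and 9.08 in S63del nerves, against 8.35 and 8.32 in WT nerves, a rise of 0.80 ± 0.20 or 1.74-fold (limma adjusted p = 0.0343). The arrays of both genes were apart. In all 4 of the 8 genes rose and 0 fell, where 3.01% of all 12393 genes rose and 4.62% changed in either direction. The median difference was 0.65 over the 8 genes, beside 0.01 over all genes.

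The other 4 did not pass at P28. Egr2, the driver of myelin genes, read 11.11 and 11.17 in S63del nerves, against 10.54 and 10.74 in WT nerves, a difference of 0.50 ± 0.18 (limma adjusted p = 0.11). Its arrays did not overlap either, as was so for 52.3% of all genes in this comparison. Sox10 differed by 0.05 ± 0.17 (95% interval -0.31 to 0.40), Id1 by -0.12 ± 0.17 (-0.49 to 0.24) and Id3 by -0.21 ± 0.14 (-0.50 to 0.08). Among the 3 Id genes Id2 alone therefore passed, and a test of Id2 against Id1 or Id3 was not made.

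The calls at P28 leaned on single arrays to different degrees. Without WT replicate 1, where WT is a lone array assumed to vary like the other groups, 0 of the 4 passed (limma adjusted p of 0.0535 for Pou3f1, 0.0659 for Sox2 and Id2 and 0.178 for Jun). Jun was lost whichever of the 4 arrays was left out. With the 8 P28 arrays fitted alone, Pou3f1 still passed and the other 3 did not.

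The 18S ribosomal RNA control of the array moved with the same groups at P28: its 3′ probe set read 6.02 and 5.92 in S63del/Chop null, 6.19 and 6.71 in S63del, 9.67 and 10.57 in Chop null and 9.65 and 9.43 in WT. No such split was seen at 4 months, where it read between 6.37 and 7.10 in all 8 arrays. At P5 it read between 7.32 and 8.66. The 5′ probe set of the control varied between replicates at P5. It read 12.68 and 8.35 in S63del/Chop null, 13.42 and 7.89 in S63del, 9.11 and 12.17 in Chop null and 7.82 and 9.40 in WT. The part of the 18S control in the results was not tested. The mean of 7 macrophage markers was 9.41 in both S63del/Chop null arrays and 9.54 and 9.49 in S63del arrays, against 9.12 and 9.27 in WT arrays, and 2 of the 7 (Aif1 by 0.88 ± 0.24 and Cx3cr1 by 0.81 ± 0.21) rose in S63del. The mean of 4 measured Schwann cell markers, of which Sox10 is 1 and therefore not independent of the 8, was 11.7 in both S63del arrays, against 11.5 and 11.6 in WT arrays. Of these markers Erbb3 rose in S63del (0.60 ± 0.17). The part of these markers in the results was not tested either. The skeletal muscle mean was 11.8 and 8.42 in S63del/Chop null, where Sox2 read 7.71 and 8.27, and 8.04 and 11.5 in S63del, where Sox2 read 7.49 and 7.50. It was 12.1 and 9.81 in Chop null, where Sox2 read 5.92 and 4.24, and 12.1 and 11.7 in WT, where Sox2 read 5.02 and 5.58. The part of muscle in the results was not tested.

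Every probe set of the 4 genes lay higher in S63del than in WT at P28. In a fit of all non-control probe sets, 7 of the 15 probe sets of the 8 genes rose and 0 fell, where 3.32% of all probe sets changed in either direction. The second Id2 probe set rose by 1.23 ± 0.18 (limma adjusted p = 0.00105) and the second Jun probe set by 0.66 ± 0.16 (limma adjusted p = 0.0327). The second Pou3f1 probe set rose by 1.42 ± 0.29 (limma adjusted p = 0.0121). The third Id2 probe set, dimmer than most on the array (percentile 18.6 of mean signal), differed by 0.62 ± 0.28 (limma adjusted p = 0.247).

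In S63del/Chop null nerves at P28 the same 4 genes rose against WT. Sox2 read 7.71 and 8.27 in these nerves, which was 2.68 ± 0.38 or 6.43-fold above WT (limma adjusted p = 0.000856). Pou3f1 read 9.95 and 10.22, or 2.14 ± 0.35 above WT (limma adjusted p = 0.00225). Id2, at 9.79 and 10.02, was higher by 1.54 ± 0.24 (limma adjusted p = 0.00167), and Jun, at 9.24 and 9.68, by 1.13 ± 0.20 (limma adjusted p = 0.00423). These are 4 of the 8, where 2.7% of all genes rose and 4.4% changed in a comparison that uses the same WT arrays as the one above, and the arrays of each of the 4 were apart, as for 50.5% of all genes. Pou3f1 and Id2 passed under all 13 alternatives, Sox2 under 12 and Jun under 11. Egr2 stood 0.52 ± 0.18 above WT (limma adjusted p = 0.103).

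Losing Chop on top of the mutation was not seen to move any of the 8 at P28. Against S63del, S63del/Chop null passed for 0 of the 8 by limma (0 at an unadjusted p under 0.05), where 0.00807% of all genes passed, 1 of 12393 (466 at an unadjusted p under 0.05). The differences were 0.49 ± 0.38 for Sox2 (95% interval -0.30 to 1.29), 0.04 ± 0.35 for Pou3f1 (-0.70 to 0.79), 0.12 ± 0.24 for Id2 (-0.39 to 0.64) and 0.33 ± 0.20 for Jun (-0.10 to 0.76). Both arrays of S63del/Chop null lay above those of S63del for Sox2, Jun, Id1 and Id3. The arrays of 32.9% of all genes were apart in this comparison. The second Jun probe set differed by -0.02 ± 0.16, and its arrays overlapped. The interval of Sox2 leaves room for a rise of more than 2-fold.

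Chop loss alone gave no call either, at any age. Sox2 read 5.92 and 4.24 in Chop null nerves at P28, against 5.02 and 5.58 in WT nerves, so that the 2 Chop null arrays were further apart than the 2 genotypes. The Chop null comparison with WT passed for 0 of 8 genes by limma at P5, P28 and 4 months, with 0, 0 and 1 of the 8 at an unadjusted p under 0.05. Over all genes it passed for 0%, 0% and 0.00807%, with 114, 1244 and 733 genes at an unadjusted p under 0.05. The test of whether the mutation acts differently without Chop also passed for 0 of 8 at each age, and for 0% of all genes (107, 972 and 322 genes at an unadjusted p under 0.05). Of the 8, 0, 0 and 1 had an unadjusted p under 0.05. At P28 that difference was 0.72 ± 0.53 for Sox2, 0.62 ± 0.34 for Id2 and 0.56 ± 0.29 for Jun. At 4 months it was -1.20 ± 0.50 for Pou3f1 (limma adjusted p = 1.0), -0.66 ± 0.53 for Sox2, -0.61 ± 0.34 for Id2 and -0.53 ± 0.29 for Jun. Leaving out Chop null replicate 1 at P28 rests that group on replicate 2 alone, which is treated below as an array that stood apart. The P28 difference in the effect of the mutation then read 1.56 for Sox2 and 0.84 for Jun. Chop null then differed from WT by -1.06 for Sox2 and -0.80 for Id2.

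**Figure D2:**
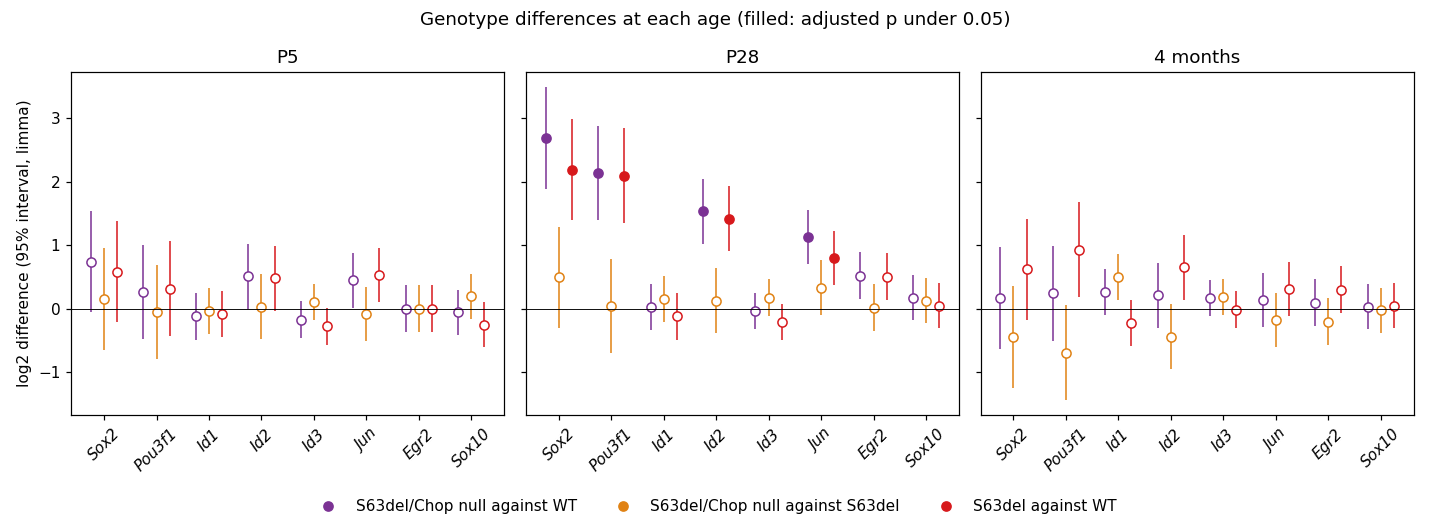
Log2 differences (y axis) with 95% intervals from limma for the 8 genes (x axis), 1 panel per age; colours tell apart the 3 genotype comparisons named in the legend. Filled points have an adjusted p under 0.05, and the 8 filled points all lie in the P28 panel, for Sox2, Pou3f1, Id2 and Jun in both S63del genotypes against WT.

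At P5, before most of the myelin has been laid down, the 4 genes lay on the same side with differences that did not pass. Sox2 read 9.57 and 9.49 in S63del/Chop null, 9.49 and 9.26 in S63del, 9.11 and 9.14 in Chop null and 8.75 and 8.83 in WT nerves. All 4 arrays of the S63del genotypes lay above the other 4. The share of all genes with such a split of 4 against 4 was not counted. The 2 arrays of S63del and the 2 of WT were apart for 50.1% of all genes at this age. The difference of S63del from WT was 0.58 ± 0.38 for Sox2, 0.32 ± 0.35 for Pou3f1, 0.48 ± 0.24 for Id2 and 0.53 ± 0.20 for Jun (limma adjusted p of 0.709, 0.908, 0.507 and 0.278). None of the 8 passed by limma (1 at an unadjusted p under 0.05), where 2.4% of all genes did. Egr2 read 11.55 in both S63del arrays, against 11.56 and 11.55 in WT arrays, a difference with a 95% interval of -0.37 to 0.37.

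For S63del/Chop null against WT at P5 the count was again 0 of 8 (2 at an unadjusted p under 0.05), where 2.07% of all genes passed, with Sox2 higher by 0.74 ± 0.38 and Id2 by 0.51 ± 0.24. The SD of Sox2 between replicates was 0.02 to 0.16 at P5, and up to 1.19 at P28. With the 8 P5 arrays fitted alone, Sox2 and Id2 passed in S63del (limma adjusted p = 0.00899 and 0.0159) and in S63del/Chop null (limma adjusted p = 0.00303 and 0.0135). Against S63del, S63del/Chop null passed for 0 of 8 at P5 (0 at an unadjusted p under 0.05), with differences from -0.08 (Jun) to 0.19 (Sox10) by the brightest probe sets and 0.0161% of all genes called. The third Id2 probe set, the dim one, differed by 0.71 ± 0.28 and did not pass.

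At 4 months no genotype difference passed. Pou3f1 read 8.56 and 9.94 in S63del/Chop null, 9.92 and 9.96 in S63del, 9.98 and 9.05 in Chop null and 8.95 and 9.07 in WT nerves. The S63del and WT arrays were apart, as for 33.5% of all genes, with a difference of 0.93 ± 0.35, while the 2 S63del/Chop null arrays spanned both. The second Pou3f1 probe set differed by 0.37 ± 0.29 between S63del and WT. Its arrays overlapped, at 6.76 and 7.27 in S63del and 6.19 and 7.10 in WT. Id2 differed between S63del and WT by 0.65 ± 0.24 and Sox2 by 0.62 ± 0.38. Of the 8 genes 0 passed in limma and 2 had an unadjusted p under 0.05, where 0% of all genes passed and 577 had an unadjusted p under 0.05.

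By the brightest probe sets, S63del/Chop null stood between 0.03 (Sox10) and 0.27 (Id1) above WT at 4 months, with 0 of 8 called (0 at an unadjusted p under 0.05) and 0.00807% of all genes. The dimmest Sox10 probe set differed by 0.52 ± 0.28 and the second Jun probe set by -0.10 ± 0.16, and neither passed. Against S63del, S63del/Chop null differed by -0.69 ± 0.35 for Pou3f1 (95% interval -1.43 to 0.05), and by -0.11 ± 0.29 in its second probe set. Id1, another helix-loop-helix inhibitor, was 0.50 ± 0.17 higher, and the dimmest Sox10 probe set was 0.73 ± 0.28 higher. By the brightest probe sets, Id1 was the 1 gene of the 8 with an unadjusted p under 0.05 in that comparison. Its limma adjusted p was 1.0, and 0.00807% of all genes passed.

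Averaged over the 3 ages, S63del exceeded WT in Sox2 by 1.13 ± 0.22, in Pou3f1 by 1.11 ± 0.20, in Id2 by 0.85 ± 0.14 and in Jun by 0.55 ± 0.12 (limma adjusted p of 0.00408, 0.00274, 0.00124 and 0.00889). These are 4 of the 8 genes, all higher, where 3.84% of all genes rose and 6.89% changed. All 4 passed under each of 20 alternatives, single arrays left out included. None of these alternatives left P28 out, the age at which the differences of all 4 were largest. For Sox2 they were 0.58 at P5, 2.19 at P28 and 0.62 at 4 months, and for Pou3f1 0.32, 2.09 and 0.93. At P5 and at 4 months 0 of the 8 passed. Egr2 was on average 0.27 ± 0.10 higher (limma adjusted p = 0.135). By the brightest probe sets, the average for S63del/Chop null against S63del ran from -0.23 ± 0.20 (Pou3f1) to 0.20 ± 0.10 (Id1), with 0 of 8 called (0 at an unadjusted p under 0.05) and 0.00807% of all genes. The dimmest Sox10 probe set averaged 0.38 ± 0.16 and the second Pou3f1 probe set -0.01 ± 0.17, and neither passed.

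The larger differences at P28 were not shown to differ from those at other ages. The S63del difference was 1.78 ± 0.50 greater at P28 than at P5 for Pou3f1 and 1.61 ± 0.53 greater for Sox2, with limma adjusted p of 0.188 and 0.317. Between 4 months and P28 it changed by -1.57 ± 0.53 for Sox2 and -1.16 ± 0.50 for Pou3f1. Of the 8 genes 0 passed between P28 and P5 (3 at an unadjusted p under 0.05), 0 between 4 months and P28 (3) and 0 between 4 months and P5 (0). The shares of all genes were 0.476%, 0.169% and 0.282%. Another fit left out replicate 2 of Chop null at P28 and replicate 1 of WT at 4 months, called here the 2 arrays that stood apart. Their groups had the widest spread between replicates (residual SD 0.394 and 0.228). With 2 arrays in a group, the spread cannot say which of them is off. In that fit Sox2 passed between P28 and P5 with its difference unchanged at 1.61, so the call came without any change in the difference.

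The same genes also changed with age, in steps where between 36.8% and 59.5% of all genes changed. In WT nerves Sox2 read 8.75 and 8.83 at P5, 5.02 and 5.58 at P28 and 7.70 and 7.82 at 4 months. The ages were thus apart (as for 82% of all genes between P28 and P5) and the lowest level was at P28. The 3′ probe set of the 18S control was highest in WT at that age. It read 7.32 and 7.85 at P5, 9.65 and 9.43 at P28 and 6.58 and 6.83 at 4 months, and its part in the age steps was not tested. At P28 against P5, Sox2 differed by -3.49 ± 0.38, Pou3f1 by -2.94 ± 0.35, Id2 by -2.91 ± 0.24, Jun by -0.89 ± 0.20 and Egr2 by -0.92 ± 0.18, all of them falls that passed. Id3, an inhibitor of the same kind as Id2, rose by 0.87 ± 0.14, Sox10 by 0.57 ± 0.17 and Id1 by 0.42 ± 0.17. Thus all 8 of 8 changed in WT between P28 and P5, 3 higher and 5 lower, where 59.5% of all genes changed. The rise of Id1 held under 7 of 12 alternatives.

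Between 4 months and P28 in WT, 5 of the 8 changed (57.0% of all genes did), all higher: Sox2 by 2.46 ± 0.38, Pou3f1 by 1.06 ± 0.35, Id2 by 0.87 ± 0.24, Egr2 by 0.55 ± 0.18 and Id3 by 0.46 ± 0.14. Compared with P5, 4 changed at 4 months (36.8% of all genes), with Id2 at -2.04 ± 0.24, Pou3f1 at -1.87 ± 0.35, Sox2 at -1.03 ± 0.38 and Id3 at 1.33 ± 0.14. With 8 genes, both counts stand near the shares of all genes. In the step between 4 months and P28, the calls of Id2, Egr2 and Id3 held under 9 of 12 alternatives each and that of Pou3f1 under 6, and averaging the 3 probe sets of Id2 gave 0.25, which did not pass. The call of Sox2 at 4 months against P5 held under 6 of 12 and was lost with each single array left out. Under quantile normalization 2 of the 8 passed between 4 months and P28, with no share of all genes given for that setting.

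In S63del nerves Sox2 read 9.49 and 9.26 at P5, 7.49 and 7.50 at P28 and 8.42 and 8.34 at 4 months. Sox2 again was lowest at P28. At P28 against P5 the falls were -1.88 ± 0.38 for Sox2, -1.98 ± 0.24 for Id2, -1.16 ± 0.35 for Pou3f1 and -0.63 ± 0.20 for Jun, while Id3 rose by 0.94 ± 0.14 and Sox10 by 0.87 ± 0.17. That is 6 of the 8, where 53.3% of all genes changed. The calls of Pou3f1 and Jun held under 9 of 12 alternatives each. The second Pou3f1 probe set differed by 0.21 ± 0.29 in the other direction, and with the mean of both the difference was -0.48 and did not pass. Between 4 months and P28 Id3 alone of the 8 passed, by 0.66 ± 0.14 (46.0% of all genes), and between 4 months and P5 6 did (39.8%). Other probe sets moved more between 4 months and P28. The second Pou3f1 probe set had a mean of 9.46 at P28 and 7.02 at 4 months, where the brightest differed by -0.10 ± 0.35. The dimmest Sox10 probe set had a mean of 7.95 at P28 and 5.48 at 4 months, where the brightest differed by -0.30 ± 0.17.

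In S63del/Chop null nerves 6 of 8 changed between P28 and P5 (50.4% of all genes), with Sox2 at -1.54 ± 0.38, Id2 at -1.89 ± 0.24 and Pou3f1 at -1.06 ± 0.35, and Id1, Id3 and Sox10 higher by 0.57 ± 0.17, 1.01 ± 0.14 and 0.81 ± 0.17. The call of Pou3f1 held under 8 of 12 alternatives. Its second probe set differed by 0.35 ± 0.29 in the other direction, and with the mean of both the difference was -0.36 and did not pass. Jun differed by -0.21 ± 0.20 and did not pass. Between 4 months and P28 3 of 8 passed (40.5% of all genes): Id3 rose (0.67 ± 0.14), and Jun (-0.62 ± 0.20) and Sox10 (-0.45 ± 0.17) fell, the last 2 calls under 9 of 12 alternatives each. The second Jun probe set differed by 0.10 ± 0.16. The second Pou3f1 probe set had a mean of 9.57 at P28 and 6.90 at 4 months, where the brightest differed by -0.84 ± 0.35 and did not pass. The dimmest Sox10 probe set had a mean of 8.25 at P28 and 6.22 at 4 months. Between 4 months and P5 6 of 8 passed (39.2%).

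The probe sets of one gene did not always run together across age. The 2 probe sets of Pou3f1 had r = 0.528 over the 24 arrays. In WT between 4 months and P28 the brighter one was 1.06 higher while the other differed by -1.39 ± 0.29 (limma adjusted p = 0.000872 in the fit of all probe sets). In single arrays the second probe set read 9.10 and 9.12 in WT at P5, 8.03 in both at P28 and 6.19 and 7.10 at 4 months. Taking the mean of both turned the WT difference between 4 months and P28 to -0.16. At P28 both probe sets were higher in S63del than in WT.

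The dimmest Sox10 probe set differed by -2.23 ± 0.28 in WT at 4 months against P28, where the brightest differed by -0.31 ± 0.17 (r = 0.50 between them). Over the 24 arrays the correlation was higher for the brighter 2 Id2 probe sets (r = 0.966), the 2 of Egr2 (0.956) and the 2 of Jun (0.827), but single age steps differed there too. In WT at 4 months against P28 the other Id2 probe sets read 0.21 ± 0.18 and -0.32 ± 0.28, neither of which passed, beside 0.87 for the brightest. The second Jun probe set rose there by 0.85 ± 0.16 (limma adjusted p = 0.000448), where the brightest differed by 0.38 ± 0.20 and did not pass. In WT at 4 months against P5 the 2 Jun probe sets read -0.52 ± 0.20 and 0.09 ± 0.16, and neither passed. The age steps of Pou3f1, Id2, Jun and Sox10 thus depended in part on the probe set. For Pou3f1 the direction in WT between 4 months and P28 did so, and its direction in S63del against WT at P28 did not.

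**Figure D3:**
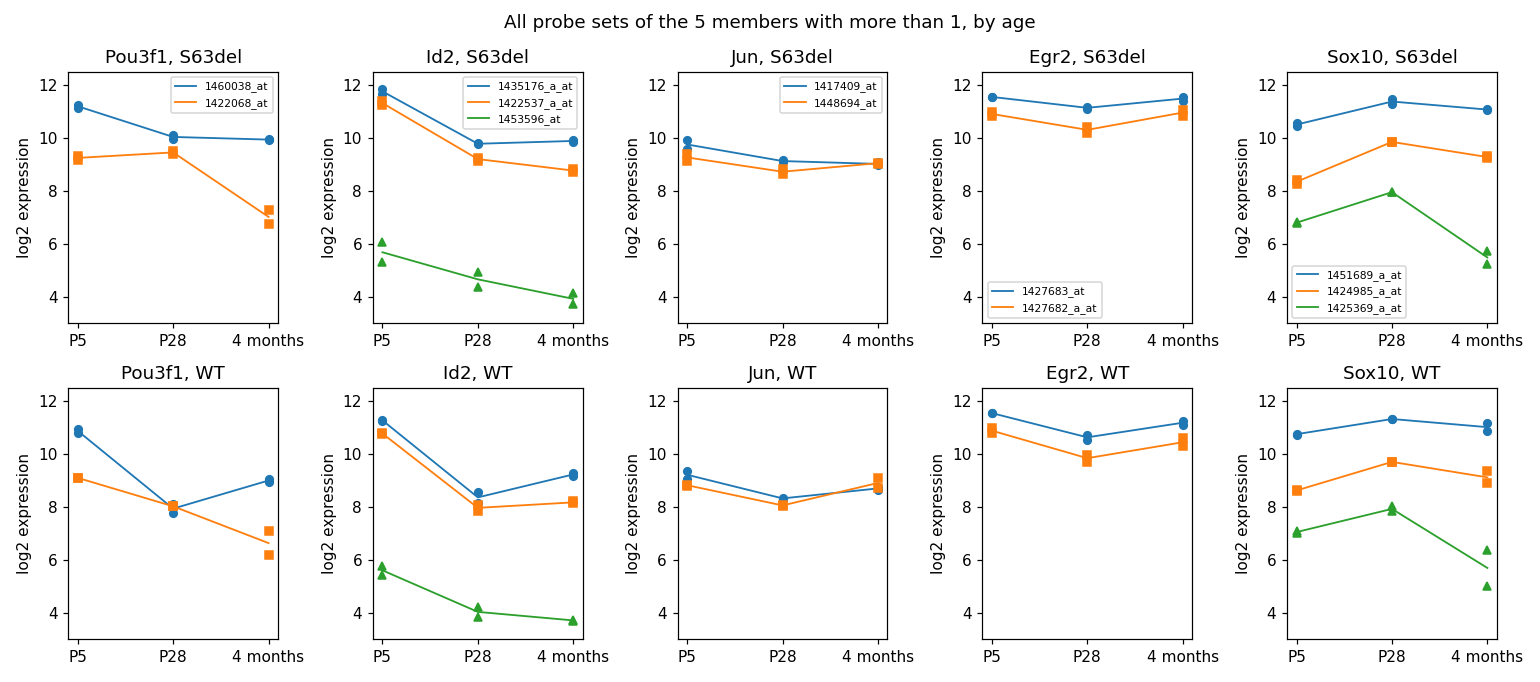
Log2 expression (y axis) at P5, P28 and 4 months (x axis) of the 5 genes with more than 1 probe set, in S63del (top) and WT (bottom); colours and symbols tell the probe sets apart, points are arrays and lines join the means of 2. The Pou3f1 lines part at 4 months, where in WT the brighter probe set is 1.06 above its P28 level and the other differs from its P28 level by -1.39 ± 0.29.

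Ordered by mean level over the 12 groups, Sox2 ran from 9.53 ± 0.06 in S63del/Chop null at P5 and 9.37 ± 0.16 in S63del at P5 (SD, n = 2 each) down to 5.30 ± 0.40 in WT at P28 and 5.08 ± 1.19 in Chop null at P28. Of its 11 pairs of neighbours in that order, 6 did not overlap. S63del and S63del/Chop null nerves at P28, at 7.49 ± 0.01 and 7.99 ± 0.40, sat beside the 4-month groups and well above the other P28 groups. For Pou3f1 4 of 11 neighbouring pairs were apart, for Id2 5, for Id3 6, for Sox10 3, for Jun 2 and for Id1 and Egr2 1 each. For Id1 and Egr2 the arrays of most neighbouring groups thus overlapped. How many pairs were apart for other genes was not counted, so these counts have no share of all genes beside them.

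Within groups, the 2 replicate arrays differed in the same direction for some of these genes. The difference between replicate 1 and replicate 2 had the sign of that of Sox2 in 11 of 12 groups for Pou3f1, 9 for Egr2 and 8 for Id2. At least as many matches were found for 0.904%, 9.98% and 20.9% of all genes. Jun and Sox10 matched in 7 groups, Id1 in 6 and Id3 in 5. Wide gaps were those of S63del/Chop null at 4 months, with -1.37 for Pou3f1, -0.69 for Id2 and -0.57 for Sox2. In Chop null they were 1.68 for Sox2, 0.93 for Pou3f1 and 0.62 for Id2 at P28, and 0.83 for Sox2, 0.93 for Pou3f1 and 0.76 for Id2 at 4 months. The 12 pairs share no array, but the number of a replicate carries no meaning of its own.

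**Figure D4:**
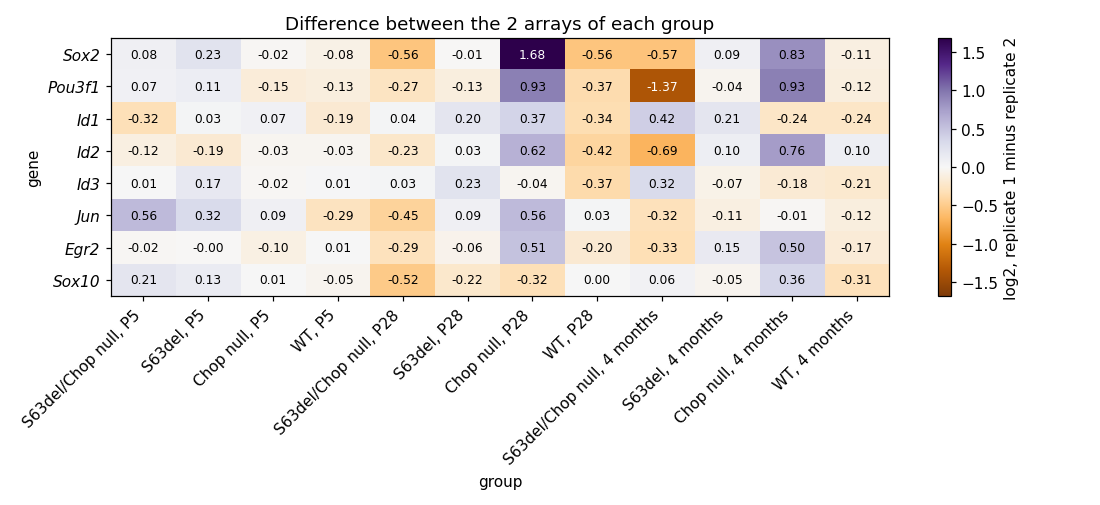
Log2 difference between replicate 1 and replicate 2 (colour) for the 8 genes (down the page) in the 12 groups (across), with each value printed. Sox2 and Pou3f1 have the same sign in 11 of 12 groups, and at Chop null P28 they read 1.68 and 0.93.

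Over all 24 arrays, Sox2 and Pou3f1 had r = 0.937, Pou3f1 and Id2 r = 0.969, Sox2 and Egr2 r = 0.948, and Sox2 and Jun r = 0.889. Id2 and Id3 ran in opposite directions (r = -0.736), as did Id2 and Sox10 (r = -0.729). These are descriptions over arrays that share the age steps in all genes. The genes of the whole table most like Sox2 were Tenm3 (r = 0.983), Tra2a (0.981) and Bach1 (0.972), those most like Id2 were Ezr (0.989), Dusp16 (0.989) and Cdk2ap1 (0.988), and those most like Jun were Fos (0.921), its partner in AP-1, Cxcl14 (0.92) and Ngfr (0.919). Pou3f1 was closest to Slc22a23 (0.98), Abhd3 (0.979) and Id2, and Egr2 to Sox2, Tenm3 (0.944) and Cyp7b1 (0.935). Those most like Id3 were Slc2a1 (0.985), Gprc5b (0.983) and Gdpd3 (0.982), and for Sox10 they were Spire2 (0.969), Hid1 (0.942) and Bgn (0.935). Id1 had weaker likeness, at most 0.873 for Ilrun.

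Around the 8, other genes of the same pathways were read from lists. Among 9 partners of Jun in AP-1, 3 rose in S63del against WT at P5, namely Atf3 (1.81 ± 0.20), Fos (1.09 ± 0.21) and Fosl1 (1.06 ± 0.21). At P28 Fos (1.33 ± 0.21) and Atf3 (1.16 ± 0.20) rose, with a median of 0.07 over the list, beside 0.01 over all genes. Of 13 measured repair cell genes known as Jun targets, 2 rose at P5, Uchl1 (2.70 ± 0.30) and Gdnf (1.63 ± 0.24), and 4 at P28, Uchl1 (2.20 ± 0.30), Gfap (1.43 ± 0.22), Ngfr (1.27 ± 0.20) and Btc (1.26 ± 0.32). The median of that list at P28 was -0.06, beside 0.01 over all genes.

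Of 14 measured myelin genes known as Egr2 or Sox10 targets, 6 fell at P5, where Egr2 and Sox10 themselves did not pass. They were Fa2h (-1.09 ± 0.14) and Ugt8a (-0.86 ± 0.13), both enzymes of myelin galactolipids, Ncmap (-1.02 ± 0.13), Ndrg1 (-0.67 ± 0.11), Mal (-0.51 ± 0.10) and Mbp (-0.45 ± 0.09), with a list median of -0.48, beside -0.02 over all genes. At P28 Mal fell (-0.41 ± 0.10) and Erbb3, the receptor part for axonal neuregulin, rose (0.60 ± 0.17), with a median of -0.03. Of the 4 measured Schwann cell markers, S100b fell at P5 (-1.06 ± 0.12), while Cryab (0.21 ± 0.11), Erbb3 (-0.07 ± 0.17) and Sox10 (-0.25 ± 0.17) did not pass.

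Among 18 measured regulators that restrain myelination or mark immature cells, Sox4 rose at P28 (1.36 ± 0.25), and of 19 that promote it 0 passed, with medians of -0.01 for both lists. In the BMP pathway, whose targets include the Id genes, 20 genes were measured and at P28 Bambi, a decoy receptor, rose (0.46 ± 0.12) while the ligand Bmp7 fell (-0.65 ± 0.14), with a median of -0.18. Of the 3 E proteins, the helix-loop-helix factors that Id proteins bind, 0 passed at P28, with a median of 0.31. Of 10 measured axon signals to the Schwann cell, Erbb3 was the 1 that passed at P28. At 4 months 0 genes of any list passed in limma, and S63del/Chop null against S63del passed for none of the listed genes at any age.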

How the data were processed

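The authors deposited log2 expression values per probe set; their range gave the unit, and the sources used here do not name the software or normalization. Nothing was transformed again. Of 22690 probe sets, 20380 name 1 gene symbol, updated to GRCm38.p6 RefSeq names through gene IDs where 20351 matched. The brightest probe set stood for each of 12393 genes. Means of the 12 groups were fitted in all 24 arrays with limma 3.58.1 (R 4.3.3, lmFit and eBayes, 12 residual degrees of freedom), and 29 comparisons were adjusted over all genes by Benjamini-Hochberg with a threshold of 0.05. A second fit took all 22626 non-control probe sets. Differences are given ± the SE of limma, which rests on 1 estimate of the spread per gene shared by all arrays of the fit. The fit was tested on simulated data. Named genes outside the 8 are the 3 most correlated with each and up to 4 with the smallest p in each of 8 pathway lists; 9 marker lists were read too, and Mal and Mbp are named to complete a count. The members and lists were chosen with earlier results of these data known. Alternatives were quantile normalization, the mean of a gene's probe sets, all probe sets in 1 fit, probe sets under the 40th percentile left out, the 8 arrays of an age alone, a replicate block within age, robust estimation with a trend on intensity, array weights, single arrays left out, and both arrays that stood apart left out. The number of arrays limits precision.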

Additional observations from a re-analysis of the deposited data

How the results depend on the processing

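Of 3224 alternative values for 232 gene results, 3109 stayed on their side of the threshold, 141 of them with a change of sign in a difference that was not called, 73 lost a call, 41 gained one and 1 turned round a called difference (Pou3f1 in WT between 4 months and P28, -0.16 with the mean of its probe sets). For S63del against WT the number of the 8 genes called at P5 was 1 with array weights and 2 with the 8 arrays of the age alone, and at P28 it was 1 with those 8 arrays and 0 to 3 with single arrays left out. For S63del/Chop null against WT it was 2 at P5 and 2 at P28 with the 8 arrays of the age alone, which leaves fewer residual degrees of freedom. With single arrays left out, Chop null against WT at P28 gave 0 to 2 and the interaction at P28 gave 0 to 2. The S63del difference between P28 and P5 gave 1 without both arrays that stood apart. Between 4 months and P28, WT gave 2 with quantile normalization and 1 to 5 with single arrays left out, and S63del/Chop null gave 1 to 4. S63del gave 2 with quantile normalization, 3 with the mean of all probe sets, 3 with array weights and 2 without both arrays that stood apart. Egr2 passed at P28 without both arrays (limma adjusted p = 0.0328 for S63del/Chop null and 0.038 for S63del). The causes were not tested. All genes are counted below only for S63del and S63del/Chop null against WT at P5 and P28. The other counts of the 8 in this section have no share of all genes beside them, and are not read as a result about the 8. Over all genes, 298 passed for S63del against WT at P5 (901 with the 8 arrays alone, 1033 with array weights, 572 without both arrays and 119 to 149 with single arrays left out) and 572 at P28 (59, 549, 1761 and 113 to 663). For S63del/Chop null against WT 257 passed at P5 (742, 795, 509 and 109 to 128) and 545 at P28 (61, 361, 1815 and 119 to 657). Replicate numbers do not pair the samples: the correlation of deviations was over 0.1 in 4 of 18 pairs of groups of an age (range -0.477 to 0.349). With the replicate block, 3 of the 8 genes were called in S63del against WT at P28 and 7 in WT between P28 and P5.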
